A study of Mus musculus with 3 samples.

Results

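The 8 genes described here encode colony stimulating factors, a related growth factor, and their receptors: the ligands *Csf1*, *Csf2*, and *Flt3l*, and the receptors or receptor chains *Csf1r*, *Csf2ra*, *Csf2rb*, *Csf3r*, and *Flt3*. They were chosen by symbol among the 28692 genes of the count matrices, and all 8 were found and had unique molecular identifiers (UMIs, the tags by which a transcript is counted once however often it is amplified). The samples were whole lungs of 3 C57BL/6 mice, numbered 2, 3, and 4, kept in room air (RA) from day 1 to day 14 of life and taken at P14. They form 1 condition with no transgene or treatment, so the genes were compared between cell types, with the mice as replicates. From 9644 deposited cells, 7642 passed a minimum of 200 genes and a limit of 20% mitochondrial UMIs, and 6868 of these lay in clusters that took 1 of 22 names from marker genes. Levels are CPM, the UMIs of a gene per 1000000 UMIs of the summed cells of 1 type in 1 mouse, given as mean ± SD over mice.

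Colony stimulating factors are secreted proteins that keep myeloid cells alive and drive their growth and maturation. CSF-1 acts through the receptor tyrosine kinase CSF1R, on which monocytes and most tissue macrophages depend. GM-CSF, the product of *Csf2*, binds a receptor made of its own alpha chain, CSF2RA, and the beta chain CSF2RB, which the receptors for IL-3 and IL-5 also use. In the lung, GM-CSF is known for inducing PPARγ in alveolar macrophages, which need it to mature and to clear surfactant. The receptor for G-CSF, encoded by *Csf3r*, supports neutrophil production, and FLT3 with its ligand, encoded by *Flt3l*, supports dendritic cells (DCs).

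On GRCm38 (GENCODE M21), the protein coding genes lie at chr3:107741048-107760469 on the minus strand (*Csf1*), chr11:54247271-54249667 on the minus strand (*Csf2*), and chr19:61223957-61228429 on the minus strand (*Csf2ra*). *Csf2rb* lies at chr15:78325752-78353847 and *Csf3r* at chr4:126024550-126044440, both on the plus strand, and *Flt3* at chr5:147330741-147400489 on the minus strand. The row named *Flt3l* carries an identifier that this annotation gives to *Gm45713*, at chr7:45125922-45136231 on the minus strand, a locus that overlaps both *Flt3l* and the ribosomal protein gene *Rpl13a*, so its values are uncertain. *Csf2rb* has a near-identical neighbor, *Csf2rb2*, and how reads that fit both were counted is not given in the sources used here. The *Csf2rb* levels may be affected.

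Promoters are shown for *Csf2ra* and *Csf3r*, the members with PU.1 letters among those that had a promoter window. They are marked for the binding letters of PU.1 and C/EBP, transcription factors of myeloid cells. Each is the 250 bases before the transcription start in RefSeq (GRCm38.p6), 5′ to 3′ on the strand of the gene, with matches in capitals.
*Csf2ra*, chr19:61228419-61228668, minus strand: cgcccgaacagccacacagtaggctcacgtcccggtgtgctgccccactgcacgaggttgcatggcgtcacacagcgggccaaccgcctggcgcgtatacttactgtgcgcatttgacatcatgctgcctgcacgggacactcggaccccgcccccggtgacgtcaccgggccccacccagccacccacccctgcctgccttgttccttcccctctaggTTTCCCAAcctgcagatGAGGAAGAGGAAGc
*Csf3r*, chr4:126024409-126024658, plus strand: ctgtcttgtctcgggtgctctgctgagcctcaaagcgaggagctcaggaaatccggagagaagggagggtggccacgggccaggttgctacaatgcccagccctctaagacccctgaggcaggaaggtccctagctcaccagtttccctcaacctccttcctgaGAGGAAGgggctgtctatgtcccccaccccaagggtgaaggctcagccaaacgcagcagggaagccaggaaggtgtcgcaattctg
The letters searched on both strands were GAGGAAG for PU.1 and TTNCNNAA for C/EBP. Those of the transcription factor AP-1, TGANTCA, were also searched. They were in no window of a member, and in 6.8% of all promoter windows. The *Csf2ra* window held 2 overlapping PU.1 matches, 14 and 8 bases before the start, and 1 C/EBP match at 31 bases. The *Csf3r* window held 1 PU.1 match at 86 bases. Of 32817 promoter windows of this length, 10.6% held the PU.1 letters and 36.8% the C/EBP letters, so a match is a description of the sequence only. The windows of *Csf1*, which was also high in neutrophil-like cells, of *Flt3*, and of *Flt3l* held neither. That of *Csf2* held 1 C/EBP match and no PU.1 match. *Csf1r* and *Csf2rb* had no window in the promoter set used, so they were not searched.

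The libraries held 3034, 3135, and 3475 deposited cells with 22476491 to 25192427 UMIs. Shares of cell types differed between mice, with immune cells at 29.2%, 55.1%, and 33.7% of kept cells in mice 2, 3, and 4, and 12 barcodes occurred in more than 1 library. In kept cells, UMIs ranged from 166 for *Csf2* to 2758 for *Csf2ra*. The cell filters together removed 17.6% of the *Csf2ra* UMIs, 16.6% of the *Csf2rb* UMIs, and 11.8% of the *Csf1r* UMIs, against 3.15% to 7.67% for the other members. Counting intervals and limits below cover counting error only.

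**Figure D1:**
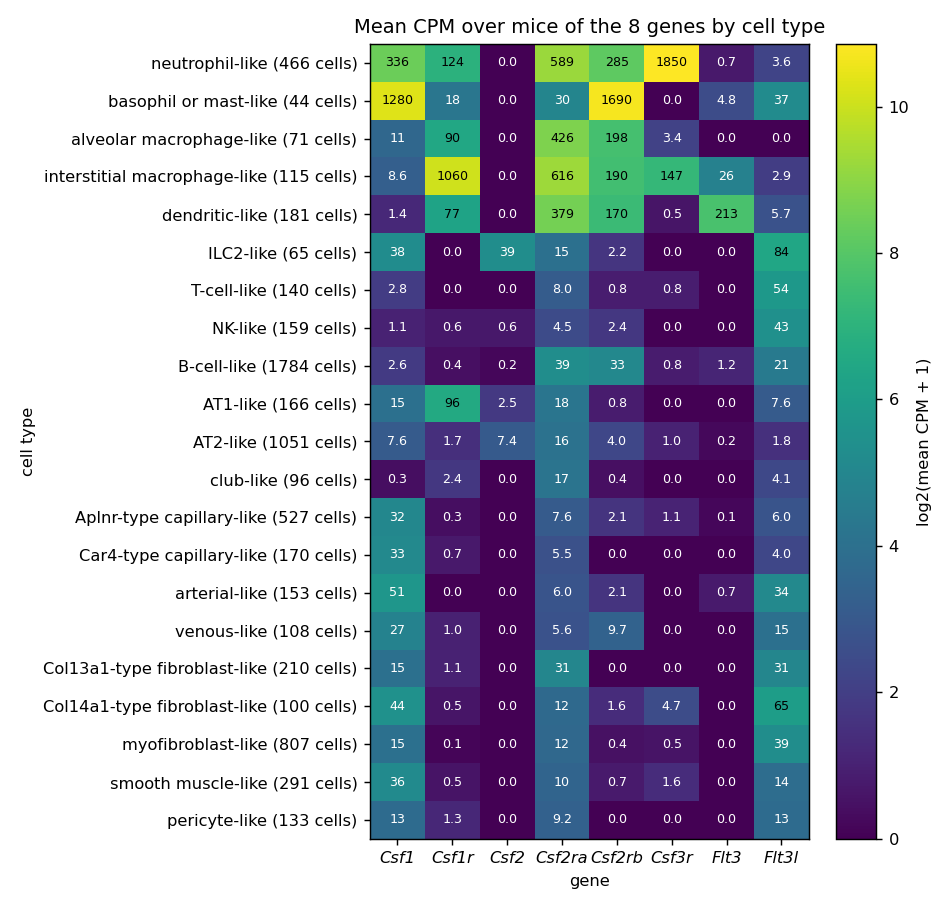
Mean CPM over mice of the 8 genes (columns) in 21 named cell types (rows), with the number in each field and its color on a log2(CPM + 1) scale. All 5 receptors were highest in myeloid types, *Csf1r* was also seen in AT1-like cells, and *Flt3l* was spread over lymphoid, stromal, and arterial cells.

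*Csf1*, the ligand of CSF1R, was highest in basophil- or mast-like cells and in neutrophil-like cells. Its level in basophil- or mast-like cells was 1600 CPM in mouse 3 and 959 CPM in mouse 4 (1280 ± 453, n = 2), and 905 CPM in the 6 cells of mouse 2, which were too few for the test. In neutrophil-like cells it was 275, 399, and 335 CPM in mice 2, 3, and 4 (336 ± 62.4, n = 3). The ranges of the types did not overlap, and each neutrophil value was more than every value of the types that followed.

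In a fit of each type against the rest of the mouse's named cells (edgeR quasi-likelihood test, Benjamini-Hochberg adjustment over all genes of the fit), *Csf1* was higher in basophil- or mast-like cells by 5.69 ± 0.27 (SE) on the log2 scale (adjusted p = 3.56e-05, 2 sums against 3). The same test gave 4.89 ± 0.21 in neutrophil-like cells (adjusted p = 1.44e-08, 3 sums against 3). In these fits, 5.73% of genes were called higher in basophil- or mast-like cells and 19.3% in neutrophil-like cells. Between the pair, basophil- or mast-like cells were higher by 1.05 ± 0.21 (adjusted p = 6.66e-05, with 6.23% of genes called higher). Without mouse 3, this difference was 0.66, and it then rested on 1 basophil- or mast-like sum, the 13 cells of mouse 4. Without TMM scaling the difference was 1.95.

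Cell by cell, *Csf1* was detected in 43 of 44 basophil- or mast-like cells, which held 247 of its 1630 UMIs, and in 132 of 466 neutrophil-like cells, which held 390. At an equal depth of 1000 UMIs per cell, the shares were 65.4% and 20.8%, against 0.286% in B-cell-like cells, the background chosen for the ligands. Neutrophil-like cells were uneven, since 21 of them held 179 of the UMIs. The basophil- or mast-like cells had UMIs of the basophil protease *Mcpt8*, while the mast cell proteases *Mcpt4* and *Tpsb2* were at 0 and some *Cma1* UMIs were found.

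Outside these types, *Csf1* was present at lower levels in vessels and stroma. Arterial-like ECs had 51.7, 55.6, and 45.0 CPM (50.8 ± 5.34), and *Col14a1*-type fibroblast-like cells had 43.7, 44.0, and 44.9 CPM (44.2 ± 0.627). Each was higher than the rest, by 0.92 ± 0.24 (adjusted p = 0.0143) and 0.89 ± 0.25 (adjusted p = 0.0266), where 14.6% and 14.5% of genes were called higher. Neither call held without mouse 2 (adjusted p = 0.0872 and 0.125) or without mouse 4 (0.0845 and 0.121). That of *Col14a1*-type cells was also lost with a filter of 500 genes and 10% mitochondrial UMIs (0.70, adjusted p = 0.101). The leading genes of the *Col14a1*-type cluster included *Col2a1*, *Col10a1*, *Col11a1*, and *Acan*, which are not among its markers. Whether it held cells of another type was not tested.

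Group 2 innate lymphoid (ILC2)-like cells (38.3 ± 10.7 CPM), smooth muscle-like cells (35.7 ± 2.59), *Car4*-type (33.2 ± 11.9) and *Aplnr*-type (31.7 ± 3.09) capillary-like ECs followed, and neighbors in this order overlapped between mice. Myofibroblast-like cells, the most numerous stromal type, had 15.1 ± 3.39 CPM and were lower than the rest (log2 difference −0.89 ± 0.23, adjusted p = 0.00745). The stromal class as a whole had 23.7, 22.0, and 22.4 CPM and a log2 difference from the rest of −0.28 ± 0.22 that did not pass the test (adjusted p = 0.295). In both fits the rest includes neutrophil-like and basophil- or mast-like cells, which held 390 and 247 of the 1630 *Csf1* UMIs. Differences from the remaining types alone were not tested.

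**Figure D2:**
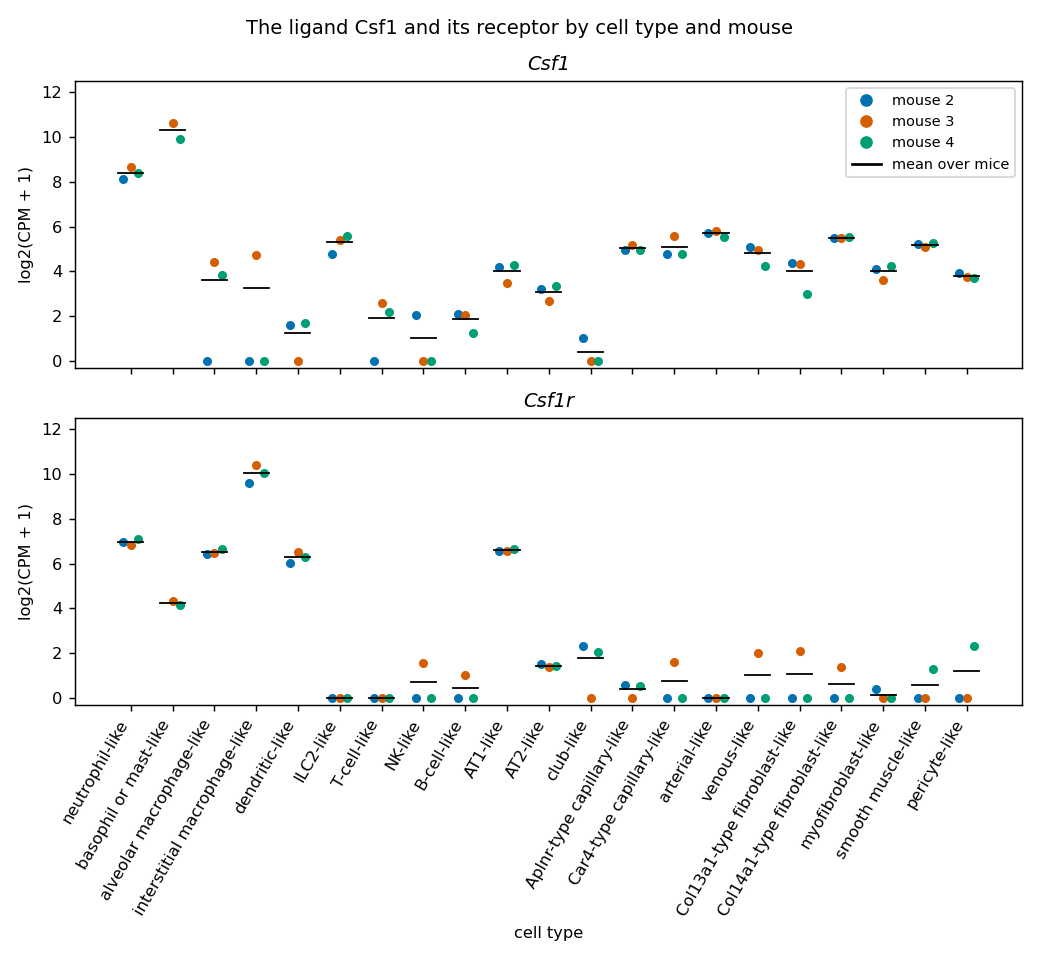
Levels of *Csf1* (ligand) and *Csf1r* (receptor) as log2(CPM + 1) in each mouse (points) and their mean (line), by cell type, for sums of at least 10 cells. *Csf1* was highest in basophil- or mast-like and neutrophil-like cells, and *Csf1r* was highest in interstitial macrophage-like cells, followed by neutrophil-, AT1-, alveolar macrophage-, and dendritic-like cells.

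*Csf2*, which encodes GM-CSF, was sparse and came mostly from AT2-like and ILC2-like cells. AT2-like cells, the surfactant-producing alveolar cells, had 8.64, 6.22, and 7.41 CPM (7.42 ± 1.21, n = 3) and 131 of the 166 UMIs, in 120 of 1051 cells, never more than 2 per cell. ILC2-like cells had 65.8, 23.8, and 26.8 CPM (38.8 ± 23.4) from 18 UMIs in 10 of 65 cells. Every mouse was higher in ILC2-like than in AT2-like cells, though AT2-like cells held most of the UMIs.

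Against the rest, *Csf2* was higher in AT2-like cells by 4.12 ± 0.33 on the log2 scale (adjusted p = 1.12e-05) and in ILC2-like cells by 3.86 ± 0.58 (adjusted p = 0.000658). In these edgeR fits, 30.3% and 8.58% of genes were called higher. Compared directly, AT2-like cells were lower than ILC2-like cells (log2 difference −1.73 ± 0.57, adjusted p = 0.0179, with 14.8% of genes called lower). That call was lost with DESeq2 (−1.90, adjusted p = 0.918), without mouse 2 (−1.31, adjusted p = 0.314), and without mouse 4 (adjusted p = 0.0747).

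At 1000 UMIs per cell, *Csf2* was found in 3.09 ± 3.3% of ILC2-like and 0.759 ± 0.16% of AT2-like cells, against 0.023 ± 0.0399% of B-cell-like cells. The SD of the ILC2-like share was larger than its mean. AT1-like cells, the flat gas exchange cells, had 2.15, 0, and 5.31 CPM from 9 UMIs, and their log2 difference from the rest was 0.51 (adjusted p = 0.573). No *Csf2* UMI was found in 466 neutrophil-, 44 basophil- or mast-, 140 T-cell-, 181 dendritic-, or 71 alveolar macrophage-like cells. In basophil- or mast-like cells the depth was too low to bound a difference from the rest (adjusted p = 0.55).

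*Flt3l*, the ligand of FLT3, was spread over lymphoid and stromal types, with the limit that its row may hold *Rpl13a* reads. ILC2-like cells had 65.8, 107, and 80.4 CPM (84.5 ± 21.1), *Col14a1*-type fibroblast-like cells 68.6, 50.3, and 75.7 (64.9 ± 13.1), and T-cell-like cells 57.4, 59.6, and 45.9 (54.3 ± 7.34). NK-like cells (43.0 ± 18.8) and myofibroblast-like cells (38.6 ± 4.84) came next. Neighbors in this order overlapped between mice, so the order among them is not separated by these data.

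Compared with the rest in edgeR, *Flt3l* was higher in ILC2-like cells by 2.15 ± 0.26 on the log2 scale (adjusted p = 0.000154) and in T-cell-like cells by 1.61 ± 0.23 (adjusted p = 0.000192). It was also higher in NK-like cells by 1.42 ± 0.28 (adjusted p = 0.00149), in myofibroblast-like cells by 1.44 ± 0.15 (adjusted p = 3.92e-05), and in *Col14a1*-type fibroblast-like cells by 2.08 ± 0.21 (adjusted p = 0.000133). Genes called higher made up 13.5% of the T-cell, 15.6% of the NK, and 27.1% of the myofibroblast fits. The stromal class held 562 of the 1081 UMIs and was higher than the rest by 1.49 ± 0.21 (adjusted p = 0.000352, with 32.6% of genes called higher).

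Smaller differences depended on single mice or settings. B-cell-like cells were higher by 0.58 ± 0.18 (adjusted p = 0.0134, with 34.5% of genes called higher), but not without TMM scaling (0.42, adjusted p = 0.0674), without mouse 3 or mouse 4 (adjusted p = 0.0551 and 0.151), or with the stricter cell filter (0.34, adjusted p = 0.108). *Col13a1*-type fibroblast-like cells were higher by 0.88 ± 0.28 (adjusted p = 0.029, with 18.4% of genes called higher), but not without mouse 2 or mouse 4 (adjusted p = 0.169 and 0.294) or with marked doublets removed (0.70, adjusted p = 0.0559), which were 28 of the 210 cells. Arterial-like ECs were higher by 0.95 ± 0.25 (adjusted p = 0.013), but not without mouse 4 (0.62, adjusted p = 0.183).

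Few *Flt3l* UMIs came from myeloid or alveolar epithelial cells. AT2-like cells had 1.82 ± 0.218 CPM, neutrophil-like cells had 3 UMIs, and alveolar macrophage-like cells had none, which placed them at least 2.66-fold lower than the rest (adjusted p = 0.00886). *Rpl13a* itself was high in the lymphoid types, at 5130 CPM in T-cell-like, 5110 in NK-like, and 4170 in ILC2-like cells, and its part in the *Flt3l* values was not tested.

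*Csf1r*, the receptor of CSF-1, was highest in the type named interstitial macrophage-like, with 779, 1350, and 1050 CPM in mice 2, 3, and 4 (1060 ± 284, n = 3). It was detected in 95 of these 115 cells, and at 1000 UMIs per cell in 62.6%, against 0.0102% of myofibroblast-like cells, the background chosen for the receptors. The gene lies at chr18:61100598-61132149 on the plus strand and overlaps *Hmgxb3* on the opposite strand. The difference from the rest was 6.52 ± 0.21 on the log2 scale (edgeR, adjusted p = 1.55e-08, where 8.95% of genes were called higher). Of the types, its level exceeded that of the next, neutrophil-like cells, in every mouse.

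The name covers a mixture. When macrophage- and dendritic-like cells were clustered again, 71 of the 115 cells joined a nonclassical monocyte-like cluster, 18 an interstitial macrophage-like cluster, 17 a classical monocyte-like cluster, and 9 a mature DC-like cluster. Nonclassical monocytes patrol the vessel wall. In the nonclassical monocyte-like cluster (73 cells), *Csf1r* was at 968, 1130, and 1060 CPM (1050 ± 80.3) and was higher than the rest by 5.75 ± 0.23 (adjusted p = 2.96e-07, where 4.96% of genes were called higher). The 18 interstitial macrophage-like cells of this second clustering had 1630, 2030, and 1770 CPM, from 4, 6, and 8 cells, too few for a test.

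AT1-like cells were the epithelial source of *Csf1r* UMIs. Their levels were 94.5, 94.0, and 100 CPM (96.2 ± 3.38), from 267 UMIs in 92 of 166 cells. AT2-like cells had 1.85, 1.61, and 1.70 CPM (1.72 ± 0.12). The ranges were far apart, and AT1-like cells held 26.4 ± 11.5% of the *Csf1r* UMIs of a mouse with 2.17% of the cells.

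Against the rest, AT1-like cells were higher by 3.09 ± 0.22 on the log2 scale (adjusted p = 3.23e-06, where 19.4% of genes were called higher), and against AT2-like cells by 5.37 ± 0.26 (adjusted p = 9.08e-24, where 14.1% were called higher). Interstitial macrophage-like cells were higher than AT1-like cells by 3.18 ± 0.18 (adjusted p = 1.26e-20, where 15.8% were called higher). AT1-like and dendritic-like cells differed by 0.29 ± 0.21, which did not pass the test (adjusted p = 0.273). The p-values of pairs come from the common fit over the sums of all types. They are not comparable with those against the rest.

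Values that bear on macrophage RNA in these droplets were as follows. Of 8 macrophage markers, *C1qa*, *C1qb*, *C1qc*, *Ms4a7*, *Cx3cr1*, *C5ar1*, and *Folr2* were at 0 in AT1-like cells, and the list's 722 UMIs (170 to 374 CPM in a mouse) were all of *Apoe*, which other cells make too. Of the 267 *Csf1r* UMIs, 229 were in 78 cells without a UMI of the 5 general immune markers, and 17 were in 6 cells marked as doublets. At 1000 UMIs per cell, 9.96 ± 0.848% of AT1-like cells had a *Csf1r* UMI, against 0.168% of AT2-like cells. AT1-like cells fell into a cluster of 129 cells with 122, 147, and 148 CPM and a deeper cluster of 37 cells with 61.5, 61.4, and 68.1 CPM. The cluster of 129 cells held 168 *Csf1r* UMIs and 22 UMIs of the overlapping gene *Hmgxb3*, and that of 37 cells held 99 and 25. All 6 marked doublets with a *Csf1r* UMI were in the cluster of 37 cells.

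Alveolar macrophage-like cells had 86.3, 87.0, and 98.0 CPM of *Csf1r* (90.4 ± 6.53). They were higher than the rest by 2.60 ± 0.29 (adjusted p = 9.21e-05, where 11.4% of genes were called higher). They were lower than interstitial macrophage-like cells (log2 difference −3.30 ± 0.24, adjusted p = 2.98e-15, where 7.61% of genes were called lower). With log-normalization before clustering, the difference of the alveolar macrophage-like cluster from the rest was 5.16. That cluster of 85 cells had *C1qa*, *C1qb*, and *C1qc* among its leading genes, and no cluster was named interstitial macrophage-like. In the main clustering, the ranges of the macrophage types were apart in all mice.

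Neutrophil-like cells had 125, 112, and 135 CPM of *Csf1r* (124 ± 11.5), from 136 UMIs in 105 of 466 cells, and were higher than the rest by 3.88 ± 0.21 (adjusted p = 7.81e-08). Among DCs, the conventional type 2 (cDC2)-like cells had 127, 142, and 163 CPM (144 ± 17.9), while 54 type 1 (cDC1)-like cells had no *Csf1r* UMI. cDC2-like cells were higher than the rest by 3.30 ± 0.22 (adjusted p = 2.48e-06, where 14.9% of genes were called higher), and cDC1-like cells were lower (adjusted p = 0.0114, where 26.3% were called lower). No UMI was found in ILC2-like, T-cell-like, or arterial-like cells.

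*Csf2ra* and *Csf2rb*, the chains of the GM-CSF receptor, were detected together in myeloid cells, with basophil- or mast-like cells as an exception. *Csf2ra* was at 591, 631, and 625 CPM in interstitial macrophage-like cells (616 ± 21.1) and at 650, 622, and 495 CPM in neutrophil-like cells (589 ± 82.4). It was at 440, 435, and 405 CPM in alveolar macrophage-like cells (426 ± 18.8), and at 333, 412, and 391 CPM in dendritic-like cells (379 ± 40.5). These types were all above B-cell-like cells, which had 39.2 ± 6.56 CPM, and the interstitial macrophage and neutrophil ranges overlapped.

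All of these types were higher than the rest in *Csf2ra*. The log2 differences were 3.75 ± 0.20 in interstitial macrophage-like cells (adjusted p = 3.91e-07), 4.90 ± 0.20 in neutrophil-like cells (adjusted p = 1.06e-08), 3.47 ± 0.20 in alveolar macrophage-like cells (adjusted p = 1.34e-06), and 3.58 ± 0.18 in dendritic-like cells (adjusted p = 7.14e-07, where 19.4% of genes were called higher). Alveolar and interstitial macrophage-like cells differed by −0.28 ± 0.19, which did not pass the test (adjusted p = 0.412). The interstitial macrophage-like type is the mixture described above, in which 71 of 115 cells joined a nonclassical monocyte-like cluster. That cluster (73 cells) held 121 *Csf2ra* UMIs and the classical monocyte-like cluster 53, against 50 in the 18 interstitial macrophage-like cells of the second clustering. The level of the type, and its comparison with alveolar macrophage-like cells, are thus largely those of monocyte-like cells. Neutrophil-like cells were called higher than interstitial macrophage-like cells by 0.82 ± 0.17 (adjusted p = 9.8e-05, where 15% of genes were called higher), but by library sizes alone the difference was −0.07 (adjusted p = 0.83), so its direction depended on the scaling.

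*Csf2rb*, the shared beta chain, was highest in basophil- or mast-like cells, with 1690 CPM in each of mice 3 and 4, and 43 of 44 cells had a UMI. Neutrophil-like cells had 291, 346, and 217 CPM (285 ± 65.0), alveolar macrophage-like cells 220, 210, and 163 (198 ± 30.2), and interstitial macrophage-like cells 217, 164, and 189 (190 ± 26.4). Dendritic-like cells had 173, 174, and 164 CPM (170 ± 5.86). The basophil- or mast-like values stood apart from all others, while the other myeloid types overlapped with their neighbors. One cell of mouse 3 in the neutrophil cluster, with 24 *Kit* UMIs and the mast cell protease *Mcpt4*, held 33 of the 325 neutrophil UMIs, and without it the neutrophil level was 265 ± 42.1 CPM.

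Relative to the rest, *Csf2rb* was higher by 6.29 ± 0.32 in basophil- or mast-like cells (adjusted p = 4.86e-05), by 4.74 ± 0.31 in neutrophil-like cells (adjusted p = 3.64e-07), by 3.25 ± 0.38 in alveolar macrophage-like cells (adjusted p = 0.000133), and by 3.27 ± 0.33 in dendritic-like cells (adjusted p = 3.61e-05). Interstitial macrophage-like cells were higher by 2.89 ± 0.41 (adjusted p = 0.00034), but not under a stricter cell filter of 500 genes and 10% mitochondrial UMIs (2.57, adjusted p = 0.066). Basophil- or mast-like cells were above neutrophil-like cells in *Csf2rb* by 1.65 ± 0.21 (adjusted p = 1.59e-08).

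The alpha chain did the opposite in the same cells. *Csf2ra* was at 29.6 CPM in basophil- or mast-like cells, from 4 UMIs, a log2 difference from neutrophil-like cells of −5.47 ± 0.42 (adjusted p = 5.12e-16, where 11.7% of genes were called lower). Against the rest it was −1.06, which did not pass the test (adjusted p = 0.424). The IL-3 receptor chain *Il3ra* and the paralog *Csf2rb2*, which serves the IL-3 receptor, were higher in basophil- or mast-like cells than in the rest, by 3.24 and 7.55 on the log2 scale.

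Both chains were seen in the same cell in 37 of 71 alveolar macrophage-like, 35 of 115 interstitial macrophage-like, and 114 of 466 neutrophil-like cells. Among DCs, the counts were 30 of 54 cDC1-like, 43 of 64 cDC2-like, and 12 of 80 mature DC-like cells. They were 3 of 44 in basophil- or mast-like and 16 of 1051 in AT2-like cells. These counts follow depth as well as level, since a cell with few UMIs seldom shows both. At 1000 UMIs per cell, *Csf2ra* was found in 33.0% of alveolar macrophage-like and 41.7% of neutrophil-like cells, and *Csf2rb* in 18.5% and 21.7%, against 1.07% and 0.026% of myofibroblast-like cells. The *Csf2* ligand was at 0 in all of these receptor-bearing myeloid types.

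**Figure D3:**
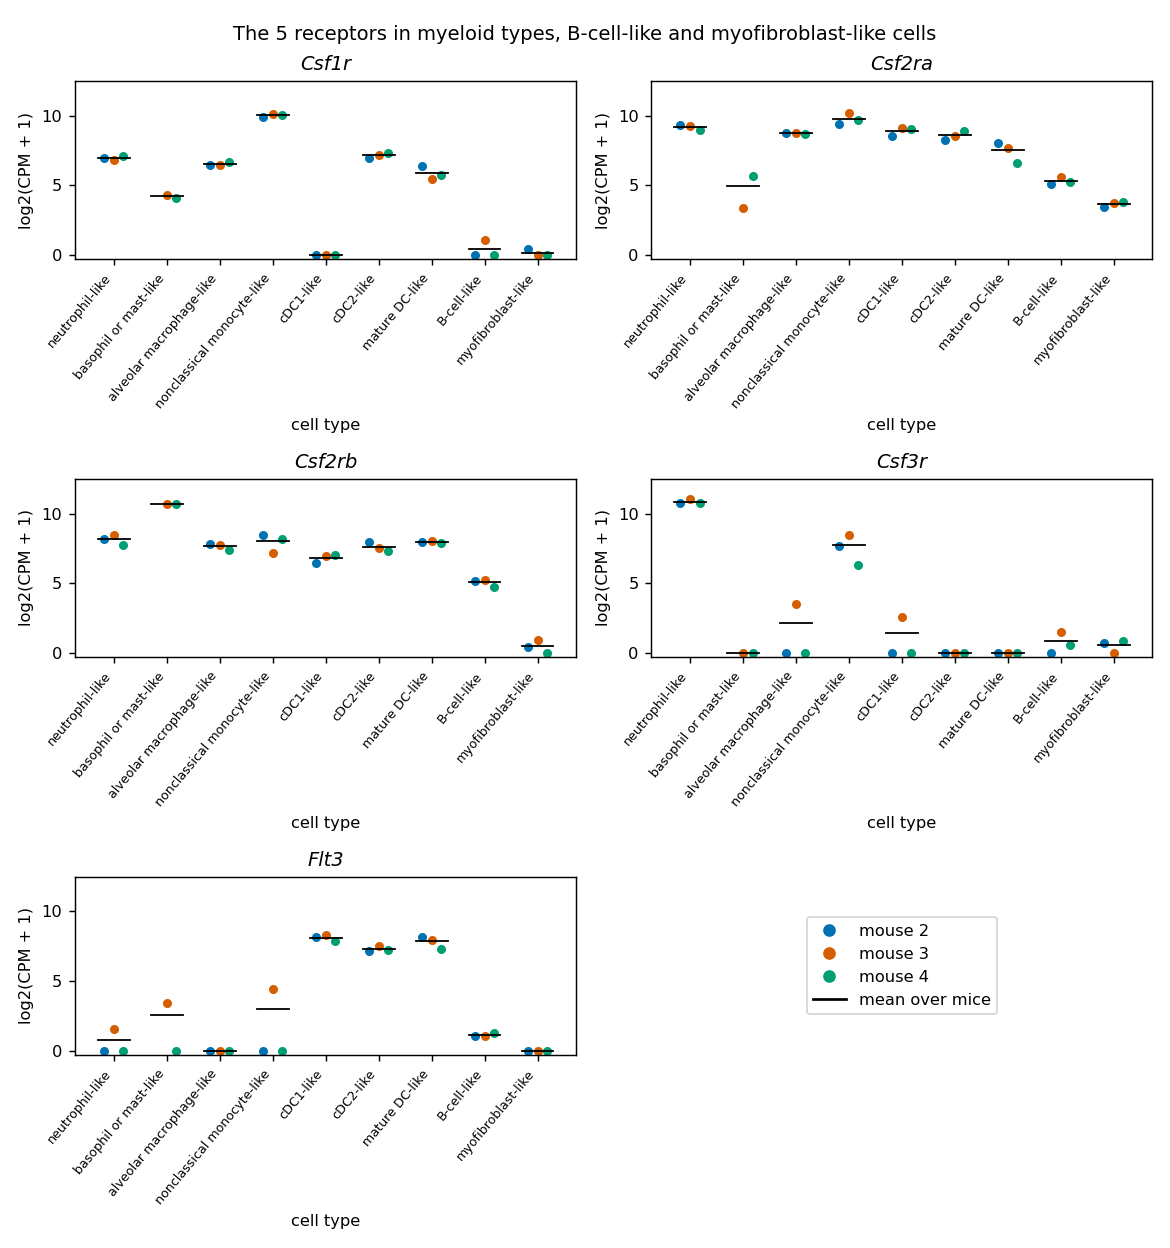
Levels of the 5 receptor genes as log2(CPM + 1) in each mouse (points) and their mean (line) in myeloid cell types and subtypes, with B-cell-like and myofibroblast-like cells for comparison. *Csf2rb* was high and *Csf2ra* low in basophil- or mast-like cells, *Csf3r* was highest in neutrophil-like cells, and *Flt3* was highest in the DC subtypes, where *Csf1r* was at 0 in cDC1-like cells.

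Alveolar macrophage-like cells were few after filtering, and this bears on their receptor levels. Of the cells with at least 5 alveolar macrophage markers, 16 had at most 10% mitochondrial UMIs and 47 had 10% to 20%, and these were kept, while 83, 163, and 26 lay in the bins above the limit. With the limit at 50%, an alternative added after the data were seen, 405 alveolar macrophage-like cells were found. Their *Csf2ra* level was 292, 323, and 362 CPM (326 ± 35.4), *Csf2rb* was at 178, 185, and 150 CPM (171 ± 18.3), and *Csf1r* at 43.9, 57.2, and 75.2 CPM (58.7 ± 15.7). *Pparg* was at 90.1 ± 7.34 CPM, and *Csf2* and *Flt3* stayed at 0. The *Csf2ra* and *Csf1r* ranges lay below those of the 71 cells that passed the filter, and the *Csf2rb* ranges overlapped. CPM are per all UMIs, mitochondrial ones included, so a larger mitochondrial share by itself lowers the CPM of other genes. The median share was 12.3% in the 71 cells, against 32.1% and 37.92% in the clusters of 347 and 58 cells at the 50% limit. How much of the lower levels this accounts for was not tested.

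**Figure D4:**
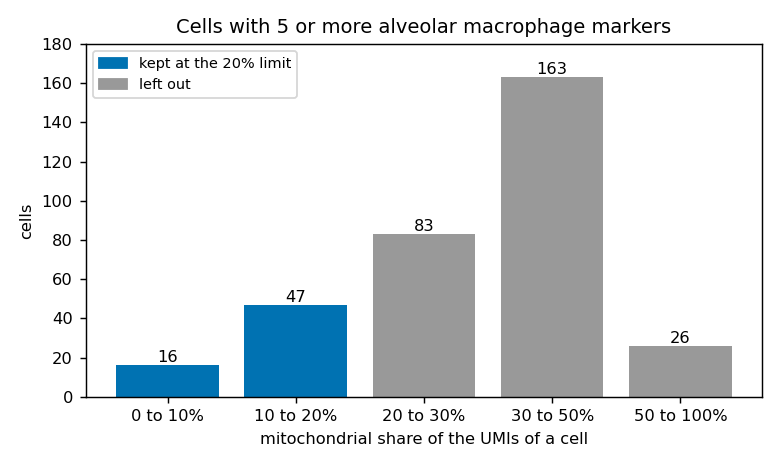
Number of deposited cells with UMIs of at least 5 alveolar macrophage markers by percent of mitochondrial UMIs, with bins kept at the 20% limit in blue. The bins hold 16, 47, 83, 163, and 26 cells, so most such cells lay above the limit.

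*Csf3r*, the G-CSF receptor, belonged to neutrophil-like cells, with 1730, 2070, and 1750 CPM in mice 2, 3, and 4 (1850 ± 194, n = 3). They held 2103 of 2212 UMIs, and 434 of 466 cells had at least 1. At 1000 UMIs per cell the share was 81.9%, against 0.0585% of myofibroblast-like cells. The log2 difference from the rest was 10.83 ± 0.42 (adjusted p = 7.86e-09). In this fit 5 members (*Csf3r*, *Csf1*, *Csf2ra*, *Csf2rb*, and *Csf1r*) were called higher, where 19.3% of all genes were called higher and 37.5% lower. The median log2 difference of all genes was −1.02, or −1.78 by library sizes alone.

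Interstitial macrophage-like cells were next in *Csf3r*, with 177, 173, and 91.1 CPM (147 ± 48.5) from 52 UMIs in 36 of 115 cells. They were higher than the rest by 1.82 ± 0.49 (adjusted p = 0.0178), but not without mouse 2 (adjusted p = 0.0761) or with the stricter cell filter (1.16, adjusted p = 0.461). Neutrophil-like cells exceeded them by 4.60 (edgeR), a call that DESeq2 did not make (4.28, adjusted p = 0.285). In the nonclassical monocyte-like cluster the levels were 205, 355, and 78.4 CPM, from 28 UMIs. In alveolar macrophage-like cells there were 2 UMIs.

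Against interstitial macrophage-like cells, neutrophil-like cells were lower in *Csf1r* (log2 difference −2.22, where 11.6% of genes were called lower) and higher in *Csf2rb* (1.50) and *Csf1* (6.27). The *Csf2rb* difference was 0.60 without TMM scaling and then did not pass the test (adjusted p = 0.0663).

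The neutrophil-like cells were not uniform. A division by the secondary granule genes *Ngp*, *Camp*, and *Ltf*, which immature neutrophils express, was made after the data were seen and is given as a description, with no test. In 424 cells without a UMI of these genes, *Csf1* was at 341, 492, and 409 CPM (414 ± 75.8), whereas 22 cells with at least 10 such UMIs had no *Csf1* UMI among 146121, where 3 UMIs would be 20.5 CPM. *Csf3r* was at 2030, 2400, and 2030 CPM (2160 ± 214) in the former and 238, 303, and 220 CPM (254 ± 43.4) in the latter. The 22 cells cannot give 10 cells in each of the 3 mice, the minimum for a sum elsewhere, so their values per mouse rest on few cells. *Csf2ra* ranged from 502 to 662 CPM and from 383 to 618 CPM, so its ranges overlapped. *Cebpe*, a factor of granulocyte maturation, ran the other way, at 45.8 ± 18.9 and 521 ± 68.0 CPM.

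**Figure D5:**
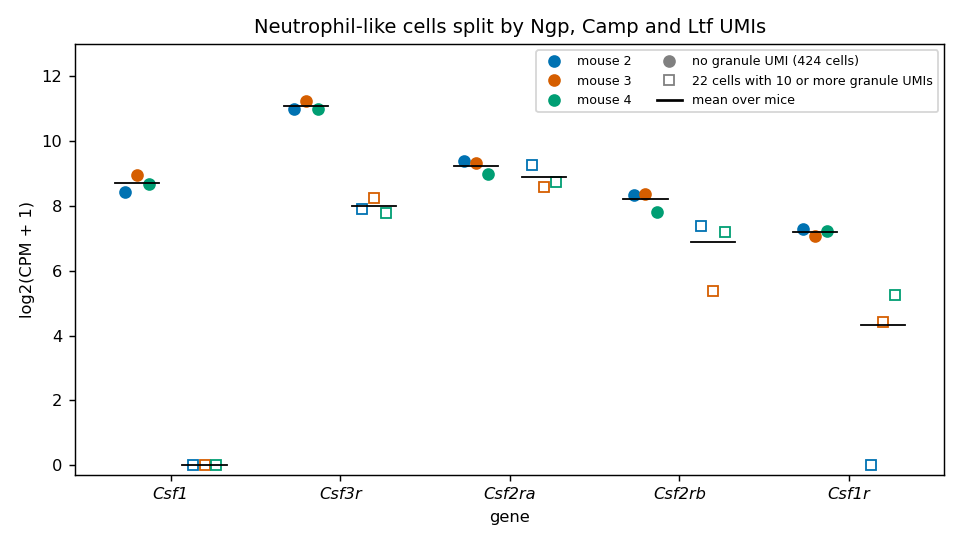
CPM in each mouse (points) of 424 neutrophil-like cells without UMIs of *Ngp*, *Camp*, and *Ltf* and of 22 cells with at least 10 of them, on a log2(CPM + 1) scale. *Csf1* was found in the former and not in the latter, *Csf3r* was higher in the former in every mouse, and *Csf2ra* overlapped. The 22 cells do not reach 10 cells in every mouse.

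*Flt3* was a gene of dendritic-like cells, at 225, 229, and 183 CPM (213 ± 25.4, n = 3), with 341 of its 373 UMIs in 98 of 181 cells. The log2 difference from the rest was 9.11 ± 0.27 (adjusted p = 8.34e-08). At 1000 UMIs per cell, 17.2% of dendritic-like cells had a *Flt3* UMI, against 0 of myofibroblast-like cells. Interstitial macrophage-like cells had 9 UMIs (26.4 ± 18.5 CPM), and their difference from the rest did not pass the test (adjusted p = 0.0719). Of these UMIs, 8 were in the 9 cells that joined the mature DC-like cluster when clustered again.

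Among the DC subtypes, cDC1-like cells, which cross-present antigen, had 287, 309, and 234 CPM of *Flt3* (277 ± 38.7), in 45 of 54 cells. Mature DC-like cells had 289, 250, and 158 CPM (232 ± 67.1), in 15 of 80 cells. cDC2-like cells had 141, 186, and 152 CPM (160 ± 23.6), in 41 of 64 cells. cDC1-like cells exceeded cDC2-like cells in every mouse, while mature DC-like cells overlapped both. The 80 mature DC-like cells were shallow, with a median of 1183 UMIs, against 9727 in cDC1-like and 11289 in cDC2-like cells. Of them, 10 came from the alveolar macrophage-like and 9 from the interstitial macrophage-like type. Against the rest, *Flt3* was higher by 6.43 ± 0.28 in cDC1-like (adjusted p = 8.11e-08, where 11.3% of genes were called higher), 5.42 ± 0.26 in cDC2-like (adjusted p = 4.49e-07), and 5.41 ± 0.43 in mature DC-like cells (adjusted p = 2.16e-05, where 6.83% were called higher).

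AT2-like cells, the main source of *Csf2*, were lower than the rest in the 7 other members, from −1.15 for *Csf2ra* to −5.17 for *Csf3r* on the log2 scale. In that fit 38.7% of genes were called lower. The rest includes the myeloid types in which these receptors and *Csf1* are high.

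The other genes of the family and its pathway were read as a list of 32 genes: 9 ligands and receptors, 11 signal transducers, and 12 transcription factors. In neutrophil-like cells, 13 of 30 tested were higher and 7 lower than the rest, against 19.3% and 37.5% of all genes, with a median of 0.65 against −1.02 for all genes. Those higher included *Csf3*, the ligand of CSF3R (9.94, from 27 UMIs), *Tyrobp*, an adaptor of myeloid receptors (6.18), *Socs3*, an inhibitor of cytokine signaling (4.11), *Spi1*, which encodes PU.1 (5.34), and *Cebpe* (10.74).

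In alveolar macrophage-like cells, 8 of 29 were higher and 4 lower, against 11.4% and 26.3% of all genes, and *Pparg*, a target of GM-CSF (5.04), *Csf2rb2* (3.70), and *Spi1* (3.35) were among the higher ones. In interstitial macrophage-like cells, 13 of 29 were higher and 4 lower, against 8.95% and 19.5%, including *Spi1* (3.80) and *Irf8*, a factor of monocytes and DCs (2.70). *Pparg* was higher in them as well (4.46), and in the nonclassical monocyte-like cluster that took in 71 of the 115 cells it was higher by 5.45 (adjusted p = 4.36e-05). In dendritic-like cells, 15 of 29 were higher and 9 lower, against 19.4% and 35.6%, including *Batf3* (7.47), *Irf8* (4.24), and *Irf4* (3.55), factors of DC subtypes.

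In lymphoid and epithelial types, other members of the list were called. ILC2-like cells had 7 of 30 higher and 9 lower, against 8.58% and 24.3% of all genes, led by *Il5* (10.91), the cytokine that drives eosinophils, with 82 UMIs. B-cell-like cells had 10 of 29 higher and 17 lower, where 34.5% and 46.4% of all genes were called, with *Il5ra* at 8.74. AT2-like cells had 7 of 29 higher and 20 lower, where 30.3% and 38.7% of all genes were called. Those higher included *Il34*, the second ligand of CSF1R (3.52), and *Sdc1*, a proteoglycan named as a binding partner of IL-34 (3.82). AT1-like cells had 2 of 29 higher and 20 lower, against 19.4% and 30.6% of all genes, and *Spi1* was at 0 UMIs in them.

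The genes most like each member over the 22 named types, by Pearson r of log2(mean CPM + 10), describe where it was read. For *Csf3r* these were *Trem3* (0.997), *Pram1* (0.991), and *Clec4e* (0.991), and for *Flt3* they were *Cd209d* (0.99), *Ifi205* (0.989), and *Tspan33* (0.978). *Csf2ra* was most like *Clec4a2* (0.95), *Mpeg1* (0.943), and *AF251705* (0.943), and *Csf2rb* was like *Adgre1* (0.943) and *Lilr4b* (0.933). For *Csf1r* they were *Ifi204* (0.89), *Arhgap19* (0.89), and *Tlr13* (0.879).

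The ligands had looser matches, with the exception of *Csf2*. *Csf2* was most like *Il5* (0.933), *Il13* (0.933), and *Fbxl21* (0.91), the first 2 of them cytokines of ILC2s. The mean *Csf2* level was 38.8 CPM in ILC2-like cells, from 18 UMIs, and 7.42 CPM in AT2-like cells, which held 131 of its 166 UMIs. The AT2-like mean was below the CPM added before the log, so these r values weight ILC2-like cells more than the main source of the UMIs. How far they rest on the ILC2-like level alone was not tested. *Csf1* was most like *Gm17619* (0.864), *Cpa3* (0.854), and *Ccpg1* (0.851), and *Flt3l* was most like *Xrcc6bp1* (0.866), *Aak1* (0.833), and *Rbl2* (0.823). These are correlations across types that share libraries, with no test.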

How the data were processed

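scRNA-Seq libraries (10x v3) of whole lung from 3 C57BL/6 mice in RA were analyzed. The authors processed each library with Cell Ranger 3.0.2 (mm10, per the submitters' notes) and deposited the raw counts of UMIs, which were not normalized. Whether counting used strand is not given in the sources used here. The lowest deposited cell had 500 UMIs.

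Cells passed at 200 genes or more and at 20% mitochondrial UMIs (13 genes) or less. SCTransform (sctransform 0.4.2) was run on the merged cells in Seurat 5.3.0 under R 4.3.3, followed by clustering with 3000 variable genes, 30 principal components, and a resolution of 0.8. The 8 members and 9 related ligands and receptors were left out of the variable genes. Clusters took a name from marker lists at a mean log2 fold of at least 1 (20 CPM added), with at least 3 markers in at least 10% of cells, and 774 cells in 4 clusters stayed unnamed. The 367 macrophage- and dendritic-like cells were clustered again with 20 principal components. The automatic doublet threshold (scanpy 1.11.5) marked under 0.5% of each library, so a rate of 0.8% per 1000 cells was used in its place, which gave 74, 79, and 97 cells with the top scores. They were removed in an alternative only.

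Counts were summed per mouse and type (at least 10 cells, in at least 2 mice), so cells were never replicates. They were tested with edgeR 4.0.16 (quasi-likelihood test, TMM, filterByExpr, Benjamini-Hochberg over all genes of a fit, threshold 0.05), each type against the sum of all other named cells of the mouse, and pairs of types in 1 fit over all types. The fit of pairs had no term for the mouse and took the sums of all types of a mouse as separate. Its p-values therefore do not measure the spread over 3 mice alone. An SE is the log2 difference over the root of the F statistic. Platelet-like cells were left out of the plot of mean levels. Exact permutation of 3 against 3 cannot go below p = 0.1 and was not used. Thinning to 1000 UMIs left out shallower cells.

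No library was a copy of another: chi-square values per degree of freedom were 38.1, 9.12, and 31.6. The sums of a mouse pair because they share the animal. Their deviations from class means correlated with r from −0.0214 to 0.176 over 18 pairs, against −0.111 to 0.0963 for 36 pairs of different mice. The test was also run on simulated data in which 200 genes differed by a log2 change of 2, and edgeR recovered 54.5% in the alveolar macrophage (13507 genes), 63% in the neutrophil (13661), 87% in the AT1 (13912), and 24% in the basophil or mast fit (14663).

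The members, gene lists, and tests were chosen with earlier results of these data known. Genes named are the 8 members, pathway genes, the 3 genes most alike to each member, markers, and some leading genes of clusters. One gene that this rule gives is not reported here. Alternatives were DESeq2 1.42.0, the mouse as a block, library sizes without TMM, all genes unfiltered, leaving out each mouse, other cell filters, doublets removed, other resolutions, log-normalization, and members among the variable genes. A limit of 50% mitochondrial UMIs and leaving out 1 mast cell were added after the data were seen.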

Additional observations from a re-analysis of the deposited data

How the results depend on the processing

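For 88 fitted differences, up to 14 alternatives were tried. The 169 values of the 13 main ones neither changed sign nor crossed the threshold. Another 13 could not be had, since clusters of macrophage-like cells were not found or were too small at a resolution of 0.4, with log-normalization, or with the stricter cell filter, and since leaving out mouse 3 or 4 left basophil- or mast-like cells in 1 mouse. Among the other 75, 100 values could not be had, 911 did neither, 38 lost the call, and 1 reversed: by library sizes alone, *Csf2ra* in neutrophil-like against interstitial macrophage-like cells was −0.07 (adjusted p = 0.83). The cause was not tested. With the mouse as a replicate block, no call changed, and *Csf1* in the stromal class was −0.23, against −0.28 without it. Over all alternatives that value ranged from −0.52 to −0.01. The *Csf1r* difference of alveolar macrophage-like cells was 5.16 with log-normalization, against 2.60. That of dendritic-like cells, 2.53, was 5.05 at a resolution of 0.4 and 4.05 with log-normalization. These names covered other cells than in the main clustering, since neither setting gave an interstitial macrophage-like cluster. The dendritic-like cluster had 368 and 273 cells, against 181. At a resolution of 0.4 the macrophage genes *Chil3* and *Ear2* were among its leading genes, and no cluster was named alveolar macrophage-like. Without TMM, the median of all genes moved from −1.02 to −1.78 in the neutrophil fit, from −0.09 to −0.65 in the AT2 fit, and from 0.35 to −0.18 for AT2-like against ILC2-like cells. Further calls were lost in *Csf2ra* and *Flt3l* of AT1-like cells without mouse 4 (adjusted p = 0.1 and 0.0925) and in *Flt3l* of dendritic-like cells without mouse 2 (0.0653). The *Csf1r* call of mature DC-like cells was lost without mouse 2 (0.0829), without mouse 4 (0.145), and at the 50% mitochondrial limit (0.0699). Of 63 alternative values of levels and shares, 33 stayed within 1 SD and 30 moved, 24 of these on thinning. Depth limits *Csf2* most: with 166 UMIs, a type at 0 bounds little.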

Other observations

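*Csf3*, which encodes G-CSF, had 27 UMIs in neutrophil-like cells, the type that also held most *Csf3r* UMIs. *Il34* was at 40.0 CPM in pericyte-like cells, from 27 UMIs, and at 15.1 CPM in AT2-like cells, from 258 UMIs.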
